A study of Homo sapiens with 2 samples.

Results

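The genes described here make up the machinery that cuts, polyadenylates, surveys and degrades mRNA. They are 57 genes of the 40205 symbols in the deposited table, chosen by name, and every one of them was found there. By role they are 9 factors of nonsense-mediated decay, 11 subunits of the RNA exosome, 2 exonucleases that work from the 5′ end, 11 deadenylation factors, 5 decapping factors, 3 proteins that bind AU-rich elements and 16 factors of 3′ end cleavage and polyadenylation. Their levels were measured by RNA sequencing in RKO cells, an established colorectal cancer line, on day 2 after siRNA transfection. The control siRNA group is 1 library from cells given a non-targeting siRNA, labelled siNC. The hnRNPK siRNA group is 1 library from cells given an siRNA that targets hnRNPK, a nuclear and cytoplasmic RNA binder that prefers C-rich sequence. Its genotype label reads as a knockout, but the title and protocol speak of siRNA, and siRNA is followed here. The sequence of the siRNA is not stated in the labels, and a single cell line limits the comparison.

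Nuclear pre-mRNA is cleaved downstream of a polyadenylation signal by the CPSF, CSTF and cleavage factor complexes, and poly(A) polymerase then adds the tail. In the cytoplasm, decay usually begins with shortening of that tail by PAN2-PAN3 and CCR4-NOT, followed by removal of the cap and digestion by XRN1 from the 5′ end or by the exosome from the 3′ end. Nonsense-mediated decay sends mRNAs with premature stop codons, and some normal mRNAs, into the same pathway through UPF1 and its partners. Proteins of the ZFP36 family bind AU-rich elements and recruit deadenylases to short-lived mRNAs such as those of cytokines and growth regulators.

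The members with the widest differences in opposite directions were UPF3A and UPF3B, which are paralogs, and the members with the lowest FPKM + 1 ratios after UPF3A were SYMPK and XRN1. Promoter sequences of these 4 genes are shown so that a reader can compare the start regions of the genes with these differences. They are RefSeq sequences of build GRCh38.p14, 300 bases each, from 250 bases before the annotated start to 50 after it. They lie at chr13:114281351-114281650 (plus strand), chrX:119852914-119853213 (minus strand), chr3:142447988-142448287 (minus strand) and chr19:45863098-45863397 (minus strand). Capitals mark matches, on either strand, to the CCAAT box, the TATA box as TATAAA, the GC box as GGGCGG, the E-box as CACGTG or the ETS core as CCGGAAG. No matches overlapped in these 4 windows.
UPF3A: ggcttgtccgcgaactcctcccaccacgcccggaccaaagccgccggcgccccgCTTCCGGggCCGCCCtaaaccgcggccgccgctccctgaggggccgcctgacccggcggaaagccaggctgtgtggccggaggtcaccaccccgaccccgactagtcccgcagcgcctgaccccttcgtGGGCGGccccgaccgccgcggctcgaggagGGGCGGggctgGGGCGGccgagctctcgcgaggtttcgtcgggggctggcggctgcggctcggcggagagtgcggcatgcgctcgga
UPF3B: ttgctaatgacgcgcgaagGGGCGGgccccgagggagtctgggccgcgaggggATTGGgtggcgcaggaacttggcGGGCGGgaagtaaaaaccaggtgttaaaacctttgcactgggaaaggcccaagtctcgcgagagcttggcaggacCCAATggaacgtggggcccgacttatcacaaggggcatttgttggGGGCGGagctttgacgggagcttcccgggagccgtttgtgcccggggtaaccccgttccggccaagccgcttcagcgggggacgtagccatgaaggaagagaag
XRN1: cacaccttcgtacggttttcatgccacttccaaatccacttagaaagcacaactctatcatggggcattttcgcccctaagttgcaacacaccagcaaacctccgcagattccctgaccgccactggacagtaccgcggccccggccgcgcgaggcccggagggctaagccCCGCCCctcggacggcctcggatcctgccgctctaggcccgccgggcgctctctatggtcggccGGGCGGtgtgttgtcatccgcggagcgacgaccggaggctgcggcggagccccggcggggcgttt
SYMPK: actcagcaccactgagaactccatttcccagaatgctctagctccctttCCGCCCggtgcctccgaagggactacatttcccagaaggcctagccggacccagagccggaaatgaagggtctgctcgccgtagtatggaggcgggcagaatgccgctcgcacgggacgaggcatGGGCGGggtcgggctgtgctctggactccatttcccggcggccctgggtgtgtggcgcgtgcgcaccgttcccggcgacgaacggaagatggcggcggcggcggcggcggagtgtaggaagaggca

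GGGCGG was found 4 times for UPF3A, 3 times for UPF3B and 2 times each for XRN1 and SYMPK. CCAAT was found 2 times for UPF3B and not for the other 3 genes. CCGGAAG, the core bound by ETS factors, was found 1 time, for UPF3A. Of the 57 genes, 50 had a promoter in the RefSeq table. GGGCGG was found in 76% of these 50 and in 44.6% of 27305 promoters of the same length, CCAAT in 48% and 35.7%, CCGGAAG in 24% and 10.7%, CACGTG in 8% and 7.43%, and TATAAA in 2% and 12%. The median GC content was 63% over the 50 and 58.3% over all, so the promoters also differed in base composition. A match describes these letters only.

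The values were FPKM, fragments scaled to gene length and library size, so levels can be set side by side between genes. The reads behind them could be worked out, with smallest totals that fit of 25729856 for control siRNA and 28550823 for hnRNPK siRNA. At the smallest numbers that fit, the 57 genes had a median of 1279 reads in control siRNA (70 to 13411). In hnRNPK siRNA the median was 1372 (38 to 13674). Ranges in parentheses after a ratio are exact 95% counting intervals from the smallest read numbers that fit. They leave out any variation between cultures, and can be too wide where true reads are a multiple. With 1 library per group no difference has a replicate check and no p-value was computed. HNRNPK itself was at 338.0 FPKM with control siRNA and 61.5 FPKM with hnRNPK siRNA, 5.50-fold lower (5.27 to 5.73). The median FPKM ratio of all genes was 0.888, so a ratio near that value is the middle of the table and not a gene that differs. Among 7 epithelial markers KRT18, KRT8, EPCAM and CDX2 were present, and KRT19, CDH1 and VIL1 were listed at 0 in both libraries. All 6 blood markers were listed at 0, and 8 stromal and endothelial markers summed to 0.00656 and 0.0434 FPKM with control siRNA and hnRNPK siRNA. In bulk RNA, less RNA per cell and fewer cells with that RNA cannot be told apart.

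Of the 57 members, 7 were past 1.5-fold between the libraries, UPF3B on the higher side and 6 others on the lower. Differences were counted on a log2 scale after 1 FPKM was added to each value, which understates the change of low genes. All 57 members passed the filter of 1 FPKM on the mean of both libraries. At 1.5-fold, 1 member was higher in hnRNPK siRNA, UPF3B, where 3.67% of 11454 genes were. In the other direction 6 members were lower, UPF3A, SYMPK, XRN1, SMG6, PAN2 and CNOT6, or 10.5% of the 57, where 14.7% of all genes were. No member was 2-fold higher or 2-fold lower on that scale, where 0.777% and 3.55% of all genes were. Directions were also checked under other scalings. These were centring, in which the median of all genes is set to 0, TMM factors, which weigh the bulk of genes as level, and equal totals, the summed FPKM of both columns made equal without small RNAs. They moved log2 ratios of plain FPKM by 0.146, 0.181 and −0.112. The centring shift was taken from the FPKM + 1 scale. On that scale the TMM and equal totals shifts were smaller for low genes, PAN2 going from −0.604 to −0.511 with TMM factors. The median log2 ratio was −0.12 over the members and −0.15 over all genes, and 33 members had a ratio over that median and 24 under it. The range from the lower to the upper quartile was 0.410 on the log2 scale for the members and 0.527 for all genes. Summed over the 57 genes, the level was 1556 FPKM with control siRNA and 1446 FPKM with hnRNPK siRNA.

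**Figure D1:**
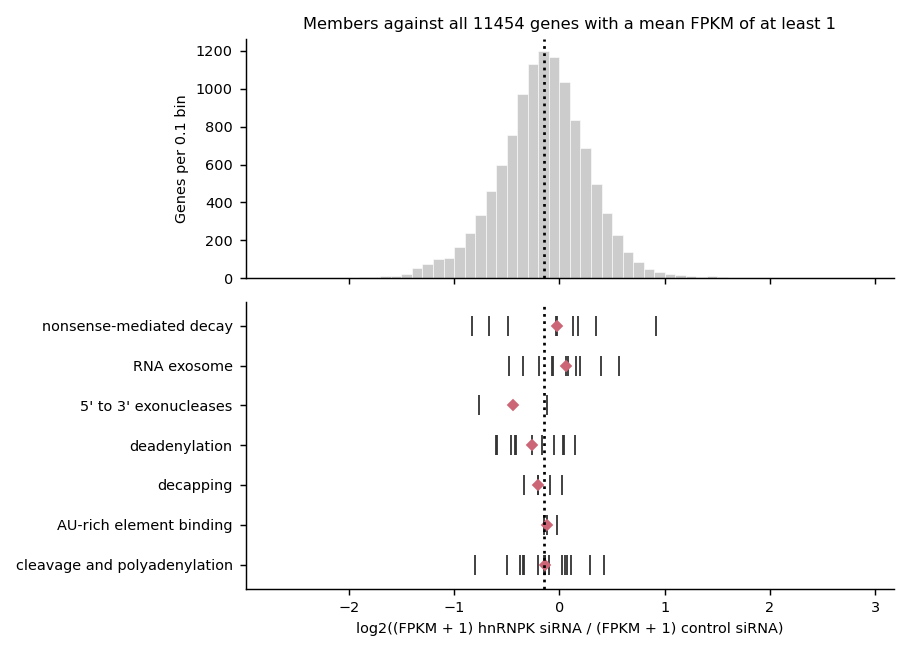
The upper panel counts all genes averaging 1 FPKM or more by their log2 ratio of FPKM + 1 between hnRNPK siRNA and control siRNA, in bins of 0.1, and the lower panel marks each member by role, with a diamond at the median of each role. The dotted line is the median of all genes, −0.15, and most members lie near it, with UPF3B farthest to the right at 0.92 and UPF3A farthest to the left at −0.83.

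The order of the members by level was nearly kept, with a Spearman correlation of 0.963 over the 57 genes, a description of 2 libraries that share gene lengths and annotation. The nuclear exonuclease XRN2 was the highest member in both, at 144 FPKM with control siRNA and 133 FPKM with hnRNPK siRNA. The deadenylase PAN2 was the lowest in both, at 2.03 and 0.991 FPKM. The endonuclease CPSF3 and NUDT21 ranked 2 and 3 in control siRNA and 4 and 3 in hnRNPK siRNA. The largest moves in rank belonged to UPF3B, from 24 to 8, and UPF3A, from 8 to 17.

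**Figure D2:**
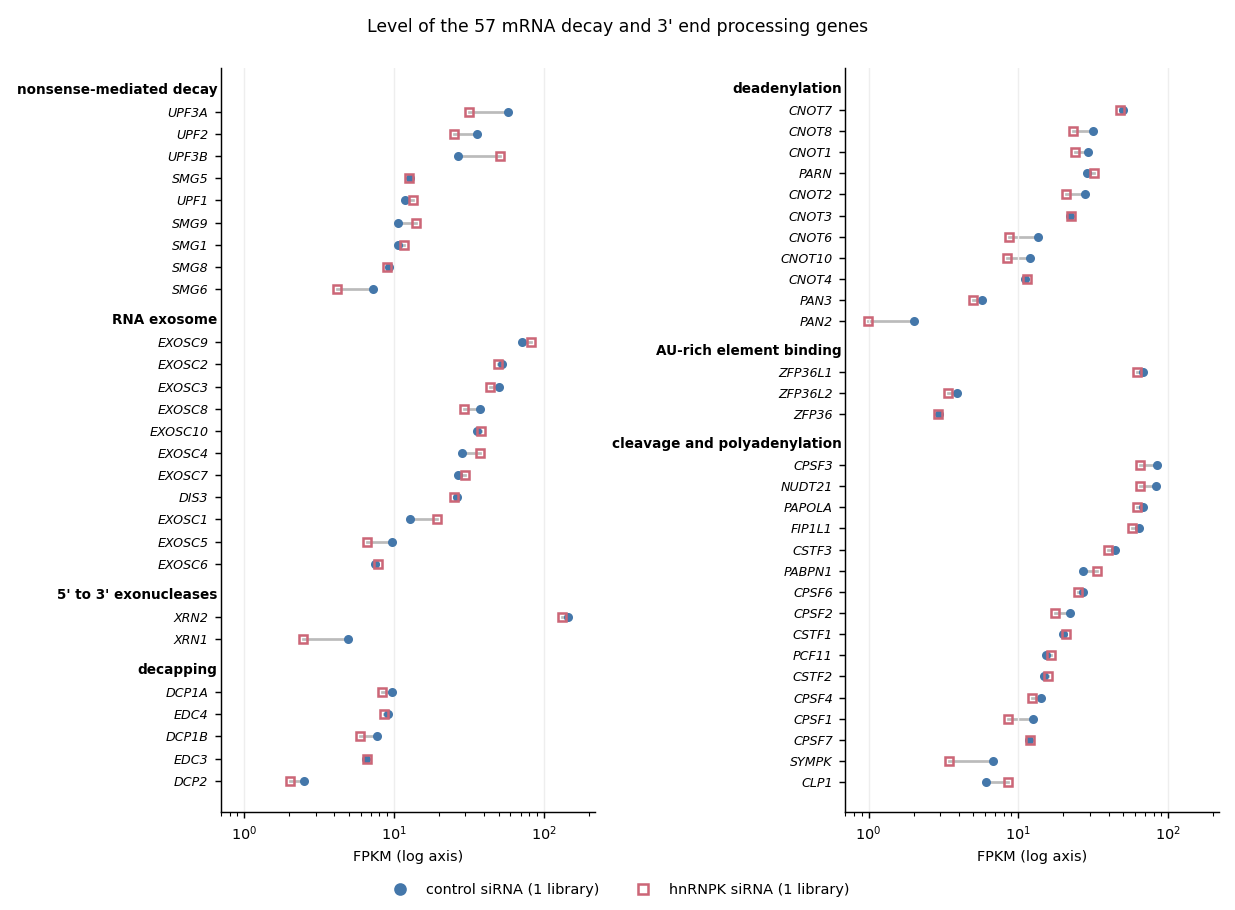
Each row is a gene, with its FPKM on a log axis in the control siRNA library (filled blue circle) and the hnRNPK siRNA library (open red square), 1 library each, grouped by role. The symbols are close together for most genes, and UPF3A and UPF3B exchange places.

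Among the nonsense-mediated decay factors the UPF3 paralogs differed in opposite directions. UPF3A and UPF3B both bridge the UPF complex to exon junction complexes, and UPF3A is known as the weaker activator of decay. UPF3A was at 57.5 FPKM with control siRNA and 31.8 FPKM with hnRNPK siRNA, a ratio of 0.554 (0.525 to 0.584). UPF3B was at 26.6 FPKM with control siRNA and 51.1 FPKM with hnRNPK siRNA, a ratio of 1.92 (1.81 to 2.04). The UPF3A transcript was thus 2.16 times the level of UPF3B in the control library and 0.623 times in the hnRNPK library, a relation within each library that no scaling between libraries can alter. At the deposited scaling the sum of both was nearly equal, at 84.1 and 83.0 FPKM, but this comparison between libraries moves with the scaling. The pseudogenes UPF3AP1, UPF3AP2 and UPF3AP3, whose reads may be exchanged with UPF3A, were between 0.941 and 1.31 FPKM with control siRNA and between 0.502 and 0.710 FPKM with hnRNPK siRNA, and their part in the UPF3A value was not tested.

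The other surveillance factors were closer to the middle of the table than UPF3A and UPF3B, although SMG6 was also past 1.5-fold. SMG6, the endonuclease that cuts the targeted mRNA near the stop codon, was at 7.24 and 4.17 FPKM with control siRNA and hnRNPK siRNA, a ratio of 0.577 (0.526 to 0.633). UPF2, the adaptor between UPF1 and UPF3 proteins, was at 36.0 and 25.4 FPKM, or a ratio of 0.705 (0.635 to 0.783). The helicase UPF1 was at 11.8 and 13.4 FPKM, or a ratio of 1.14 (1.07 to 1.22). The kinase of UPF1, SMG1, had a ratio of 1.10 (1.06 to 1.15), and its cofactors SMG8 and SMG9 were at 0.972 (0.880 to 1.07) and 1.30 (1.18 to 1.44). SMG5, which helps remove phosphate from UPF1, was at 0.985 (0.918 to 1.06). SMG8 and SMG5 had intervals that include 1 and turned to the higher side after centring or with TMM factors. SMG1 has many near-identical pseudogenes, so its value is uncertain. The 9 factors together had a median log2 ratio of −0.02, with 6 of 9 above the median of all genes.

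All 11 exosome subunits were within 1.5-fold at the deposited scaling, and 8 of the 11 had a ratio over the median of all genes. The 9-subunit core is a barrel that threads RNA, and catalysis is provided by DIS3 and EXOSC10. Core levels ranged from 7.45 FPKM for EXOSC6 to 72.1 FPKM for EXOSC9 in control siRNA, and from 6.62 FPKM for EXOSC5 to 82.7 FPKM for EXOSC9 in hnRNPK siRNA. The transcripts of a complex whose subunits occur once each were therefore not at equal levels in either library. The cap subunit EXOSC1 had the highest ratio, at 12.7 and 19.3 FPKM or 1.51 (1.33 to 1.72), which was short of 1.5-fold once 1 FPKM was added and past it if 0.1 FPKM was added instead, or after centring or TMM scaling. EXOSC4 was at 28.4 and 37.6 FPKM, or a ratio of 1.32 (1.20 to 1.47). On the lower side, EXOSC5 was at 9.66 and 6.62 FPKM, or a ratio of 0.686 (0.564 to 0.833), and EXOSC8 at 37.5 and 29.2 FPKM, or a ratio of 0.779 (0.720 to 0.843). The nucleases were near 1, DIS3 at 0.958 (0.907 to 1.01) and EXOSC10 at 1.06 (1.003 to 1.11), and both turned sign under a scaling alternative, as did EXOSC2 and EXOSC6. EXOSC3, EXOSC7 and EXOSC9 had ratios of 0.871, 1.12 and 1.15.

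The exonucleases that digest RNA from the 5′ end differed from each other in level and in ratio. XRN1, the cytoplasmic enzyme that degrades decapped mRNA, was at 4.92 FPKM with control siRNA and 2.49 FPKM with hnRNPK siRNA, 1.98-fold lower (1.80 to 2.17). XRN2, its nuclear counterpart, which also takes part in ending transcription, had a ratio of 0.919 (0.897 to 0.941), a sign that flipped after centring or under TMM factors. The level of XRN2 was 29.4 times that of XRN1 in the control library and 53.3 times in the hnRNPK library.

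**Figure D3:**
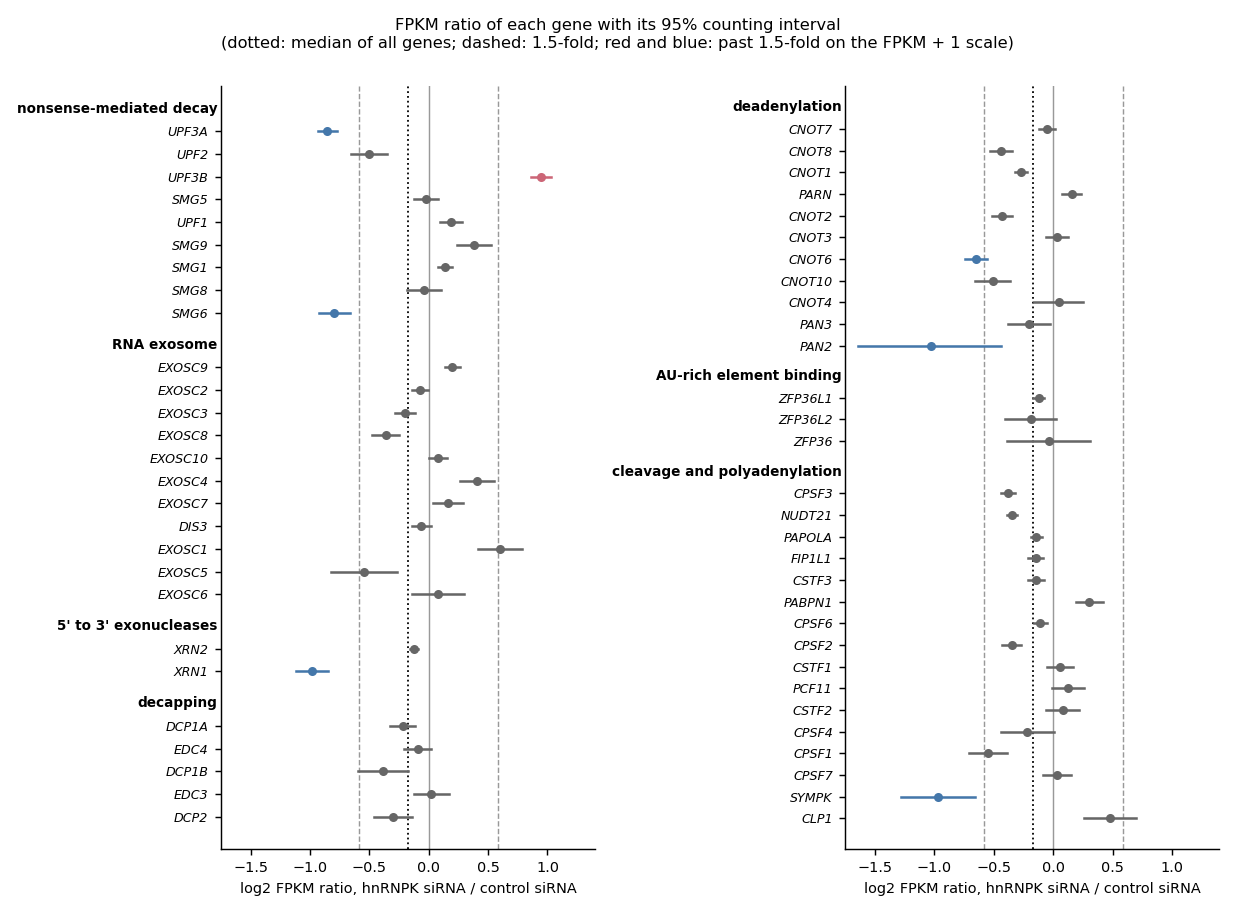
Points are the log2 FPKM ratio of hnRNPK siRNA to control siRNA for each member by role, and bars are exact 95% counting intervals from the smallest read numbers that fit. Blue and red mark members past 1.5-fold on the FPKM + 1 scale, the dashed lines 1.5-fold and the dotted line the median of all genes. UPF3A, SMG6, XRN1, PAN2, CNOT6 and SYMPK lie to the left and UPF3B to the right, and PAN2 has the widest interval.

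Of the 11 deadenylation factors, 7 lay below the median of all genes, where 5727 of 11454 genes lie by definition. Their median log2 ratio was −0.26, against −0.15 for all genes. PAN2, the catalytic subunit of PAN2-PAN3, was at 2.03 and 0.991 FPKM, or a ratio of 0.489 (0.321 to 0.736) from at least 70 and 38 reads. Its partner PAN3 was at 5.76 and 5.01 FPKM, or a ratio of 0.869 (0.769 to 0.983). In CCR4-NOT there are 2 kinds of nuclease. Of the EEP type, CNOT6 was at 13.5 and 8.61 FPKM, or a ratio of 0.637 (0.596 to 0.680), and its paralog CNOT6L, which is no member, was at 8.90 and 6.12 FPKM, or a ratio of 0.687 (0.625 to 0.756). Of the DEDD type, CNOT7 was at 49.9 and 48.1 FPKM and CNOT8 at 31.4 and 23.1 FPKM. CNOT8 was lower at 0.738 (0.692 to 0.787), and CNOT7, at 0.964 (0.921 to 1.01), had an interval that includes 1.

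The other CCR4-NOT subunits showed no shared direction. The scaffold CNOT1 had a ratio of 0.827 (0.798 to 0.857), CNOT2, of the module that docks on targets, 0.741 (0.699 to 0.785) and CNOT10 0.702 (0.634 to 0.777). CNOT3, the partner of CNOT2 in that module, was at 1.02 (0.957 to 1.09) and the ubiquitin ligase CNOT4 at 1.03 (0.893 to 1.19), and both turned to the lower side with equal totals. Summed over the 8 CCR4-NOT members, the level was 197 FPKM with control siRNA and 167 FPKM with hnRNPK siRNA. PARN, a separate poly(A)-specific ribonuclease, was at 28.6 and 31.9 FPKM, or a ratio of 1.11 (1.05 to 1.18).

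The decapping factors were all within 1.5-fold. Their levels were below the median of the members, 15.25 FPKM with control siRNA, where the median of all measured genes was 8.73 FPKM. They ranged from 2.50 FPKM for DCP2, the enzyme that cleaves the cap, to 9.69 FPKM for its activator DCP1A in control siRNA. DCP2 had a ratio of 0.812 (0.725 to 0.909), DCP1A 0.858 (0.797 to 0.923) and DCP1B 0.767 (0.663 to 0.886), which was the lowest of the 5. The enhancers EDC3 and EDC4 were at 1.02 (0.915 to 1.13) and 0.937 (0.864 to 1.02), and for these the interval includes 1.

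The 3 AU-rich element proteins were all within 1.5-fold. ZFP36L1 was the main family member in these cells, at 67.6 FPKM with control siRNA and 62.0 FPKM with hnRNPK siRNA. ZFP36, also called tristetraprolin, was at 2.97 and 2.90 FPKM, and ZFP36L2 at 3.88 and 3.40 FPKM. The ratios were 0.918 (0.888 to 0.950), 0.975 (0.766 to 1.24) and 0.877 (0.756 to 1.02) for ZFP36L1, ZFP36 and ZFP36L2. ZFP36L1 and ZFP36 turned to the higher side after centring or with TMM factors.

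In the 3′ end processing machinery the 6 members of the cleavage complex had a median log2 ratio of −0.35, against −0.15 for all genes. The other modules were mixed. All 6 of CPSF1, CPSF2, CPSF3, CPSF4, FIP1L1 and SYMPK were below 1 as deposited, where 7422 of 11454 genes were. Of the 6, 5 lay below the median of all genes, CPSF4 by only 0.055 on the log2 scale, and FIP1L1 was at it. FIP1L1 turned to the higher side with TMM factors and came to 0.9985 after centring, too close to 1 to give a direction. The scaffold symplekin, SYMPK, was at 6.77 FPKM with control siRNA and 3.46 FPKM with hnRNPK siRNA, 1.95-fold lower (1.58 to 2.43). CPSF1, the largest CPSF subunit, was at 12.6 and 8.59 FPKM, or a ratio of 0.684 (0.611 to 0.765). CPSF3, the endonuclease that makes the cut, was at 84.1 and 64.7 FPKM, or a ratio of 0.769 (0.740 to 0.800), and its inactive homolog CPSF2 was at 0.785 (0.743 to 0.828). CPSF4, a zinc finger protein that contacts the polyadenylation signal, was at 0.861 (0.736 to 1.01).

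Cleavage factor Im, which binds UGUA upstream of the cut and influences which site is used, had its small subunit NUDT21 at 82.9 and 65.1 FPKM, or a ratio of 0.785 (0.762 to 0.809). Its large subunits CPSF6 and CPSF7 were at 0.929 (0.892 to 0.967) and 1.02 (0.941 to 1.11), directions that turn with the scaling. Cleavage factor IIm went the other way, with the kinase CLP1 at 6.13 and 8.54 FPKM, or a ratio of 1.39 (1.20 to 1.62), and PCF11 at 15.3 and 16.6 FPKM, or a ratio of 1.09 (0.991 to 1.20). The CSTF subunits, which bind the downstream element, were at 1.04, 1.06 and 0.905 for CSTF1, CSTF2 and CSTF3, and each turned sign under a scaling alternative.

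Of the tail-making factors, the poly(A) polymerase PAPOLA was at 68.0 and 61.7 FPKM, or a ratio of 0.907 (0.880 to 0.935) that turned after centring or with TMM factors. The nuclear poly(A)-binding protein PABPN1 was at 27.2 and 33.6 FPKM, or a ratio of 1.24 (1.14 to 1.34). The table also lists the readthrough gene BCL2L2-PABPN1, at 35.8 and 44.2 FPKM, and reads of the shared exons cannot be assigned to either symbol here, so PABPN1 is uncertain.

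Across the 57 genes, 24 were lower and 12 higher under all 4 scalings tried (deposited, centred, TMM and equal totals), and 21 changed direction with the scaling. No such count over all genes is given here. As deposited, 37 of the 57 members and 7422 of 11454 genes were below 1. The counting interval excluded 1 for 41 members, 29 lower and 12 higher, at the deposited scaling. That is 71.9% of the members, near the 68.2% of all genes for which it did, and 48% of all genes were lower by this measure and 20.2% higher. UPF3A and UPF3B were past 1.5-fold under each of 6 combinations of scaling and pseudocount. XRN1 and SYMPK were past it under all of these but a pseudocount of 5 FPKM, and SMG6, PAN2 and CNOT6 under 3 of the 6, losing it also after centring and with TMM factors.

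**Figure D4:**
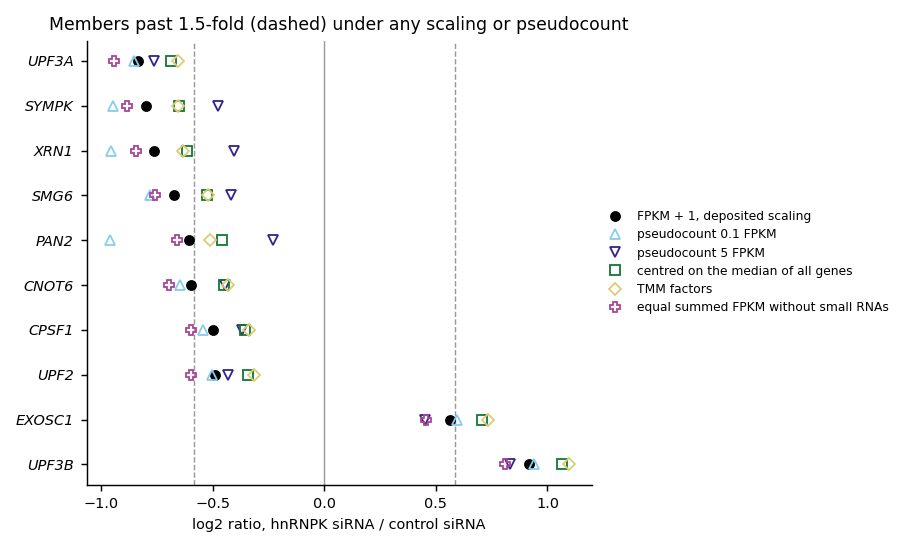
The log2 ratio of the 10 members that were past 1.5-fold (dashed lines) under at least 1 setting, with a symbol for each scaling or pseudocount. All symbols of UPF3A lie left of −0.58 and all of UPF3B right of 0.58.

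Further genes of the same pathways, taken from lists of 74 genes of which 72 were measured, were counted in the same way. On the FPKM + 1 scale 7 of 72, or 9.72%, were at least 1.5-fold lower and 0 higher, where 14.7% and 3.67% of all genes were, and their median log2 ratio was −0.13. Those lower numbered 10 with equal totals, 5 after centring and 5 with TMM factors, and those higher 2 after centring, MAGOH and C1D, and 3 with TMM factors, LSM2 being added. In percent, 13.9, 6.94 and 6.94 were thus lower, where 19.4, 8.97 and 9.15 of all genes were. On the higher side 2.78% were after centring and 4.17% with TMM factors, where 7.22% and 7.82% of all genes were. PDE12, a mitochondrial poly(A) exonuclease, was at 14.5 and 6.10 FPKM with control siRNA and hnRNPK siRNA, 2.37-fold lower (2.17 to 2.60). LSM4, of the LSM ring that binds mRNA tails and promotes decapping, was at 77.9 and 36.0 FPKM, 2.16-fold lower (2.04 to 2.29). Of the same ring LSM5 was also lower, with a ratio of 0.731 (0.688 to 0.777), LSM6 was at 0.938 and LSM7 at 1.16 with intervals that include 1, and LSM1, LSM2 and LSM3 were at 1.20, 1.34 and 1.15. The scavenger decapping enzyme DCPS was at 12.9 and 5.90 FPKM, 2.18-fold lower (1.66 to 2.87). PAPD4, a cytoplasmic poly(A) polymerase, was at 18.5 and 8.38 FPKM, 2.20-fold lower (2.03 to 2.40). The others were NBAS, RBM7 of the nuclear exosome targeting complex and the decapping enzyme NUDT16, at ratios of 0.506, 0.597 and 0.585.

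The exon junction complex, which marks spliced mRNA and cues nonsense-mediated decay, lay on the higher side in all 6 of its listed genes under each of the 4 scalings. As deposited 4032 of 11454 genes were above 1, and the list was chosen with earlier results of these data known. None of the 6 was past 1.5-fold at the deposited scaling, and MAGOH was after centring and with TMM factors. MAGOH was at 76.4 and 105 FPKM, or a ratio of 1.38 (1.25 to 1.51), RBM8A at 1.34 (1.28 to 1.39), RNPS1 at 1.32 (1.27 to 1.38) and EIF4A3 at 1.15 (1.08 to 1.22). Of the exosome cofactors, C1D was highest at 1.47 (1.33 to 1.63), while the noncanonical poly(A) polymerases PAPD5 and PAPD7 were at 0.674 (0.623 to 0.730) and 0.679 (0.603 to 0.764).

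Transcripts known as substrates were looked at as levels only, since decay rates were not measured. Both substrate lists below were chosen with earlier results of these data known, so their counts are descriptions and test nothing. The 10 listed substrates of nonsense-mediated decay were all above the median of all genes, with a median log2 ratio of 0.34. All were also above 1 under each of the 4 scalings, where 4032 of 11454 genes were above 1 as deposited. Why they were higher was not tested. Of the 10, ZFAS1 alone passed 1.5-fold at the deposited scaling, where 3.67% of all genes did. After centring 3 did, with SNHG1 and GADD45A added, where 7.22% of all genes did, and with TMM factors 4 did, with GAS5 added, where 7.82% did. GAS5 was at 172 and 232 FPKM, or a ratio of 1.35 (1.29 to 1.42), GADD45A at 75.2 and 109 FPKM, 1.45 (1.10 to 1.91), and ATF4 at 214 and 249 FPKM, 1.16 (1.13 to 1.19). The GADD45A interval is probably too wide, since the smallest numbers that fit gave a length of only 46 bases. The intervals of SNHG12 and RP9P included 1. Of 10 measured mRNAs with AU-rich elements, 5 were at least 1.5-fold higher and 1 lower under each of the 4 scalings. Of all genes 2.45% to 7.82% were higher and 8.97% to 19.4% lower, depending on the scaling. TNFAIP3, an inhibitor of NF-κB signalling, was at 1.03 and 3.79 FPKM, or a ratio of 3.67 (3.01 to 4.49), IL8 at 2.48 and 6.64 FPKM, 2.67 (2.14 to 3.35), and IER3 at 57.7 and 101 FPKM, 1.75 (1.65 to 1.85). CXCL1, from at least 5 and 37 reads, and NFKBIA were the other higher ones. CCND1 was the lower one at 0.304 (0.289 to 0.320). Within 1.5-fold were PLAUR at 1.25 (1.11 to 1.42), DUSP1 at 1.17 (0.808 to 1.71) and MYC at 0.954 (0.925 to 0.984). VEGFA, also within it, had a ratio of 1.06 (0.993 to 1.12) that turned with equal totals. Several of the 10 mRNAs are also NF-κB targets, and why they differed was not tested.

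**Figure D5:**
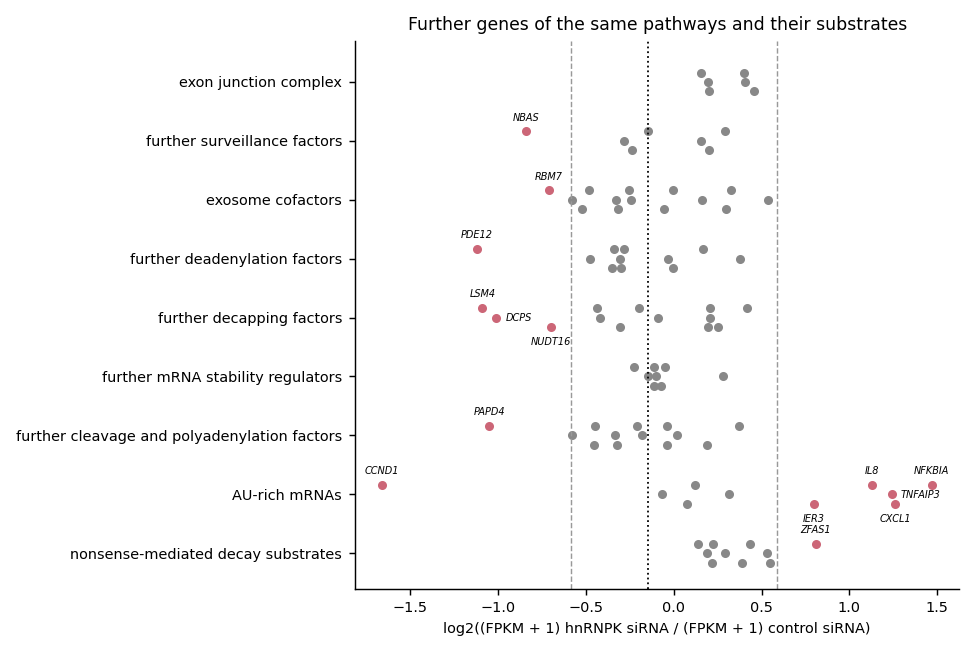
Each point is a further gene averaging 1 FPKM or more, placed by its log2 ratio of FPKM + 1 between hnRNPK siRNA and control siRNA and grouped by list. Red points with names are past 1.5-fold (dashed lines), and the dotted line is the median of all genes. The exon junction complex and the substrates of nonsense-mediated decay lie right of the dotted line.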

How the data were processed

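RNA was sequenced from 1 control siRNA and 1 hnRNPK siRNA library. The authors deposited FPKM values, 1 column per library, with Bowtie 0.12.2 and build hg19 named in the submitters' processing notes. No source used here names the annotation, counter or strand use. The hnRNPK column was matched by the letters Si and K, a less direct match than siNC.

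Of 19069 genes above 0, 99.34% came out as whole reads with a whole length (relative tolerance 5e-14, length tolerance 1e-05 bases). The smallest numbers that fit were used. True reads are these or a multiple, so intervals can be too wide, and copies of molecules would make them too narrow. Recovery and Clopper-Pearson intervals were tested on simulated data (Python 3.11.15, scipy 1.17.1).

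Ratios used log2(FPKM + 1) and genes averaging at least 1 FPKM. Calls were by size (1.5-fold and 2-fold), with no test. The members and lists were chosen with earlier results of these data known. All members were accounted for. In full were given members past 1.5-fold and the extremes of each role, with further genes past 1.5-fold named. Some further genes below that were chosen after their values were seen. Pseudocounts, filters and scalings were varied. Promoter sequences are credited to RefSeq.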

Additional observations from a re-analysis of the deposited data

How the results depend on the processing

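Members at least 1.5-fold higher numbered 1, or 2 with a pseudocount of 0.1 FPKM, after centring or with TMM factors, the added member being EXOSC1. Members at least 1.5-fold lower numbered 6, or 1 with a pseudocount of 5 FPKM, 4 with a mean FPKM of at least 5, 3 after centring, 3 with TMM factors and 8 under equal summed FPKM, where UPF2 and CPSF1 were added. Of all genes 3.67% were 1.5-fold higher and 14.7% lower as deposited, 7.22% and 8.97% after centring, 7.82% and 9.15% under TMM factors and 2.45% and 19.4% under equal summed FPKM. Members at least 2-fold higher numbered 0, or 1 after centring or with TMM factors, which is UPF3B. No setting gave a member 2-fold lower, all of them with a pseudocount added. On plain FPKM PAN2 was past 2-fold lower as deposited, at a ratio of 0.489 (0.321 to 0.736). With equal totals PAN2, XRN1 and SYMPK were at 0.453, 0.468 and 0.474 on plain FPKM. The median log2 ratio of the members, −0.12, was −0.231 under equal summed FPKM, 0.025 after centring and 0.059 under TMM factors. HNRNPK, at −2.44, was at −2.29 after centring, −2.26 under TMM factors, −2.37 at 5 FPKM added and −2.55 under equal summed FPKM. Requiring the interval to exclude no change, an alternative added after seeing the data, left the 1 and 6 members. No paired analysis was possible because each group has 1 library. At the smallest read numbers that fit, depth limits PAN2 and ZFP36, and nothing here measures variation between cultures.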
